A study of Arabidopsis thaliana with 28 samples.

Results

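Divergent gene pairs are neighbouring genes that are transcribed away from each other, so that a single stretch of DNA between their start sites serves as promoter for both. All neighbouring protein-coding genes of TAIR10 chromosomes 1 to 5 were screened for pairs in which the minus-strand gene lay left of the plus-strand gene and the start sites were 1 to 500 bp apart. The screen gave 1530 pairs with 3060 genes, out of 6049 divergent neighbours, 23862 neighbouring gene pairs without overlap and 27444 protein-coding genes. The median distance between the start sites was 191 bp, with quartiles of 106 and 329 bp. The 5 chromosomes held 417, 204, 338, 230 and 341 pairs, and 88 of the genes were shorter than 500 bp.

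Acetylation of lysine 9 of histone H3 (H3K9ac) is a mark of active genes that in plants sits mainly on the first nucleosomes of the transcribed gene. The promoter in front of an active gene is often depleted of nucleosomes. At a divergent promoter an acetylated stretch can therefore lie on either side, and a domain caller that joins nearby windows can report the 2 stretches as 1 domain across the promoter.

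H3K9ac was profiled in untreated whole seedlings of the wild-type accession Col-0, 10 days old and grown in 16 h light and 8 h dark. The groups were CUT&Tag, in which a Tn5 transposase cuts at antibody-bound chromatin; eChIP, an enhanced chromatin immunoprecipitation (ChIP), here from 0.1 g of seedlings; and PHILO, a high-throughput ChIP for low inputs. CUT&Tag started from nuclei of 200 mg of seedlings. PHILO libraries were made from 1 mg of tissue, were sequenced to a labelled depth (0.5M, 1M, 2M, 5M or 10M), were amplified in 10, 12 or 14 PCR cycles, or were made from 20K, 100K or 500K nuclei. Each of the 14 groups had 2 libraries. Samples of the depth and cycle series were processed independently, but whether replicates came from separately grown seedlings is not stated for every group, so p-values measure the spread between these libraries, which may be technical. The 28 domain lists held 7812 to 15238 domains on chromosomes 1 to 5 with 207252 to 7244180 ChIP reads in them, and all were called against the same IgG library.

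In each list a gene was scored as covered when its whole first 500 bp lay in H3K9ac domains, and a promoter was scored as spanned when 1 domain held both start sites. Domains of 1 list were never closer than 800 bp. Therefore a pair with both genes covered always lay in a single joined domain, and the start sites of a pair fell into different domains in 0 lists. Spanning at such pairs is fixed by the caller's joining of windows and is no separate observation. The borders of domains moved in steps of 200 bp, which limits each position below.

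The shared promoters of a few of the pairs named below are shown as examples. The first and second were covered on both sides in all 28 lists, the next pair of promoters on the minus-strand side alone in all 28 lists, and the fifth separates CUT&Tag from ChIP and was chosen after its values were seen. All are plus-strand TAIR10 sequence between the annotated start sites, from the RefSeq copy of the genome, and capitals mark matches on either strand to the word TATAAA, to the word TGGGCC, to the word CACGTG or to the word AAACCCTA.
AT1G73020 and VPS46.2, chr1:27473661-27473762: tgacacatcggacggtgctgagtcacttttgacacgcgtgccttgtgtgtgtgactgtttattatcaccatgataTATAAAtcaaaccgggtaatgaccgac
AT1G59960 and AT1G59970, chr1:22073268-22073351: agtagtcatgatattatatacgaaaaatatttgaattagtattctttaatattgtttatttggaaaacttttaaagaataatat
AT1G15530 and AT1G15540, chr1:5341932-5342089: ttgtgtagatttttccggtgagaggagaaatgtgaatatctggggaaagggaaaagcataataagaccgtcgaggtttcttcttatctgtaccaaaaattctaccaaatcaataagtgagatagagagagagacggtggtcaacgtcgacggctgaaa
PSRP5 and AT3G56920, chr3:21070357-21070557: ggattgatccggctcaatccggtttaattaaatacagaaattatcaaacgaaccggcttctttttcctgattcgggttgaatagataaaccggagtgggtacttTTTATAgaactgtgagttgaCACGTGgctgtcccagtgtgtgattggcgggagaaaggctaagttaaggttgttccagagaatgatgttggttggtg
AT4G20330 and AT4G20340, chr4:10984522-10984617: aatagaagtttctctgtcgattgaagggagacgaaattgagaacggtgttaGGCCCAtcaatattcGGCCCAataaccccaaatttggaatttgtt
The GC content of these promoters was 45.1, 16.7, 41.1, 43.3 and 40.6% in this order. The promoter of AT1G59960 and AT1G59970 held none of the searched words although both genes were covered in every list.

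In most pairs the whole first 500 bp were covered at both genes or at neither. The eChIP libraries had both genes covered in 54.5 and 55.5% of the pairs and 1 gene in 13.9% ± 0.55 (SD, n = 2). In the PHILO 10M libraries both genes were covered in 53.8 and 53.1% of the 1530 pairs, 1 gene in 17.7% ± 0.23 (SD, n = 2) and neither in 28.9% ± 0.23 (SD, n = 2). A domain spanned the promoter in 63.4% ± 0.28 of the pairs (SD, n = 2), that is, at all pairs with both genes covered, at 54.9% of the pairs with 1 gene covered and at 0.79% of the pairs with neither. The plus-strand gene alone was covered more often than the minus-strand gene alone in all 28 libraries: in PHILO 10M the minus-strand gene alone was covered in 125.0 ± 5.66 pairs and the plus-strand gene alone in 145.5 ± 2.12 pairs (SD, n = 2).

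**Figure D1:**
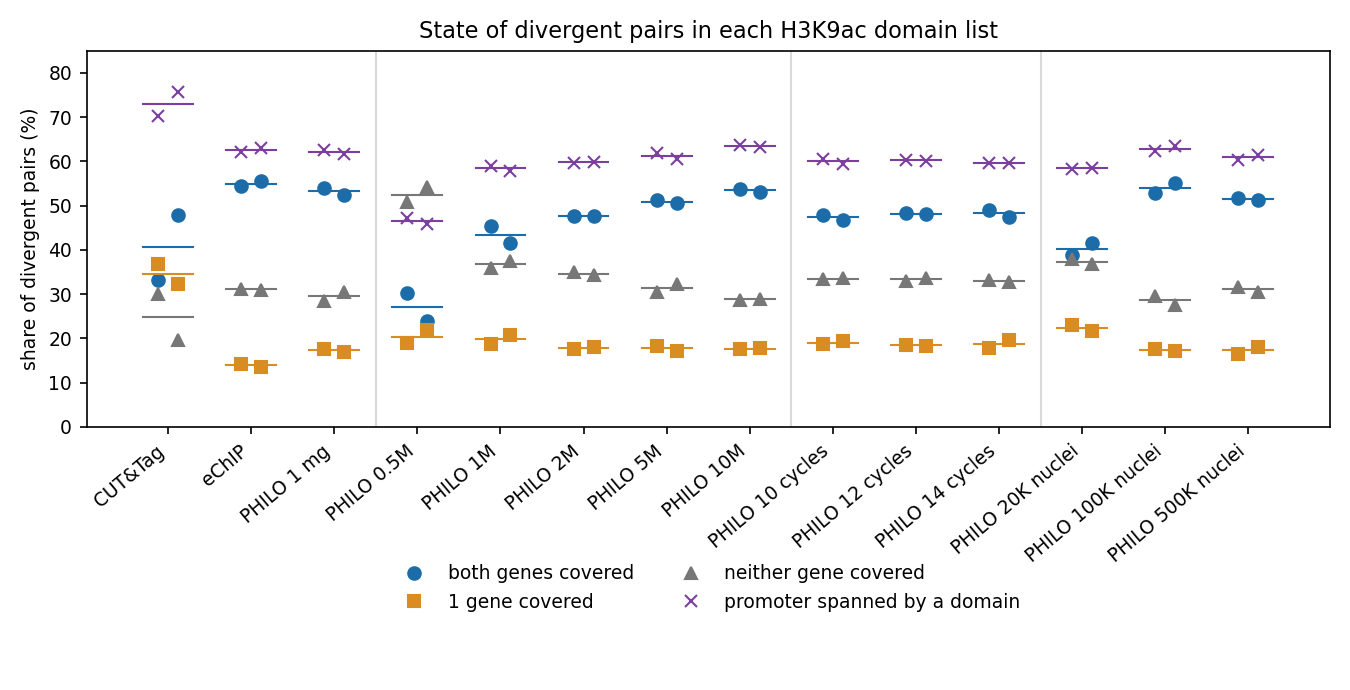
Share of the 1530 divergent pairs in each state, in percent, for every library (points) and group mean (lines). The 2 CUT&Tag libraries lie above the other 26 in the share with 1 gene covered and in the share with a spanned promoter, and they differ from each other in the share with both genes covered, 33.2 and 48.0%.

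Where both genes were covered, the domain reached about equally far to either side. Domains across shared promoters were chosen for holding both start sites, which favours long domains, so their length is a description. Their median length was 2500 bp ± 707 in CUT&Tag, where other domains had 1700 bp ± 141 (SD, n = 2). In PHILO 10M it was 1800 bp in both libraries, against 1000 bp for other domains, and spanning domains made up 6.33% ± 0.07 of all domains (SD, n = 2). In PHILO 10M the median length was 2000 bp in both libraries at pairs with both genes covered and 1400 bp in both at pairs with 1 gene covered. The reach, from a start site to the domain border on that gene's side, was taken only at pairs with both genes covered. Such pairs were 508 of 1075 and 734 of 1158 spanned pairs in the CUT&Tag libraries, and the scoring rule favours a long reach there. The median reach was 1561 bp ± 284 on the minus-strand and 1465 bp ± 260 on the plus-strand side in CUT&Tag, 1049 bp ± 20.5 and 1052 bp ± 22.3 in eChIP, and 860 bp ± 2.83 and 864 bp ± 5.66 in PHILO 10M (SD, n = 2). The eChIP reach was the widest of the ChIP groups.

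The domains over divergent promoters were slightly less enriched than others in ChIP and more enriched in CUT&Tag. The median log2 fold of the ChIP read count over the IgG control was 1.46 ± 0.14 in spanning domains and 1.28 ± 0.13 in other domains of CUT&Tag, and 2.07 ± 0.03 and 2.12 ± 0.03 in PHILO 10M (SD, n = 2). It was lower in spanning domains in 26 of 28 libraries and in 13 of 14 groups, all but CUT&Tag, by 0.11 on average on the log2 scale (two-sided exact sign-flip test over 14 group means, p = 0.00586, adjusted p = 0.00586 over 4 contrasts). This test measures consistency over libraries that share their genes and 1 IgG control, not over gene pairs. By library the difference was -0.41 and -0.46 at 0.5M and -0.05 in both libraries at 10M. The parts of depth and of domain length in the fold were not tested. The paper's methods name an IgG control for PHILO and regular ChIP but none for CUT&Tag, so the CUT&Tag fold may rest on a control of another method.

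The share of pairs covered on both sides was higher where the start sites were closer. In CUT&Tag it was 51.3% ± 13.6 for the 353 pairs up to 100 bp apart and 34.8% ± 7.60 for the 214 pairs at 401 to 500 bp (SD, n = 2). In PHILO 10M it was 70.7% ± 1.40 up to 100 bp, 64.4% ± 0.32 for the 436 pairs at 101 to 200 bp, 46.9% ± 0.74 and 34.2% ± 0.59 for the 287 and 240 pairs of the next bins, and 33.2% in both libraries for the widest bin (SD, n = 2). The shortest bin was higher than the widest in all 14 groups. In the widest bin CUT&Tag differed from PHILO 10M by less than its own spread. Over a wider gap a joined domain has more promoter to bridge, so distance and joining cannot be told apart in these lists.

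**Figure D2:**
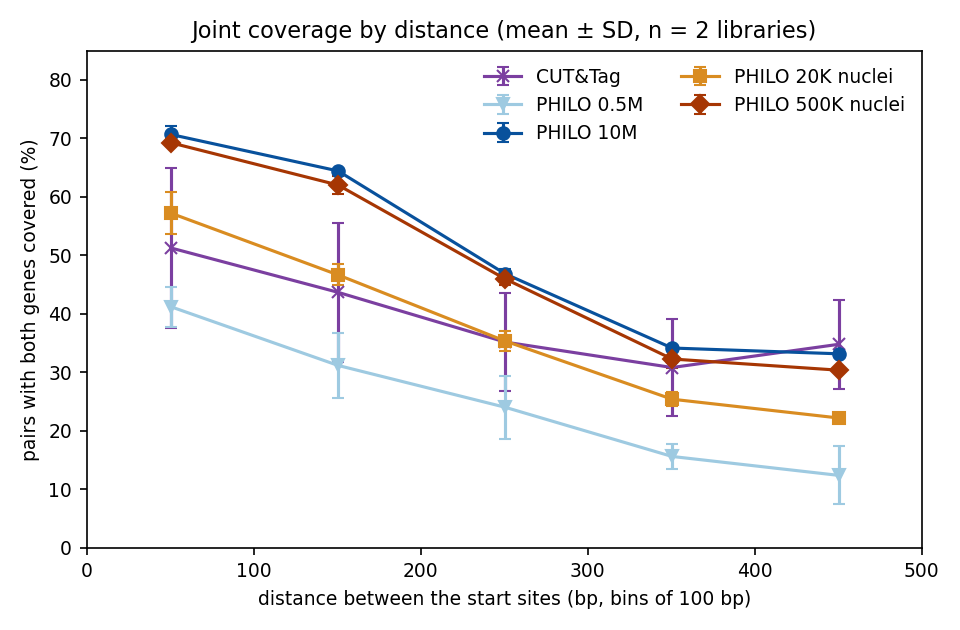
Share of pairs with both genes covered against the distance between the start sites, in bins of 100 bp, as mean ± SD of 2 libraries. The CUT&Tag curve, at 51.3% in the shortest and 34.8% in the widest bin, is flatter and has wider error bars than the PHILO 10M curve, at 70.7 and 33.2%.

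Close divergent pairs were covered together more often than wider divergent pairs and same-strand neighbours. Convergent neighbours were not analysed here, and the start sites of same-strand neighbours lie a gene length apart, so distance and orientation cannot be told apart in that comparison. Among PHILO 10M pairs with at least 1 gene covered, both were covered in 75.1% ± 0.41 of close divergent pairs, in 30.4% ± 0.03 of 962 divergent pairs more than 500 and up to 1000 bp apart, and in 23.1% ± 0.10 of 5125 same-strand neighbours with 1 to 500 bp between the genes (SD, n = 2). Over all groups the share was 47.5 percentage points higher than at same-strand neighbours and 40 points higher than at wider divergent pairs, each higher in 28 of 28 libraries (exact sign-flip test over 14 group means, p = 0.000122 in both, the smallest this test can give, adjusted p = 0.000163). The scoring favours this order: a gene counts only if its start site lies in a domain, and a joined domain holds both start sites of a close pair. The test thus measures consistency over libraries under this rule, not over gene pairs, and cannot separate the pairs from the rule. The gap to same-strand neighbours was 6.03 points in CUT&Tag and 52.01 points in PHILO 10M. The CUT&Tag shares were 53.6% ± 8.69 at divergent pairs and 47.5% ± 6.52 at same-strand neighbours (SD, n = 2). When only the bases after the first 200 of each window were required, the gaps over all groups were 16.4 and 26.2 points.

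**Figure D3:**
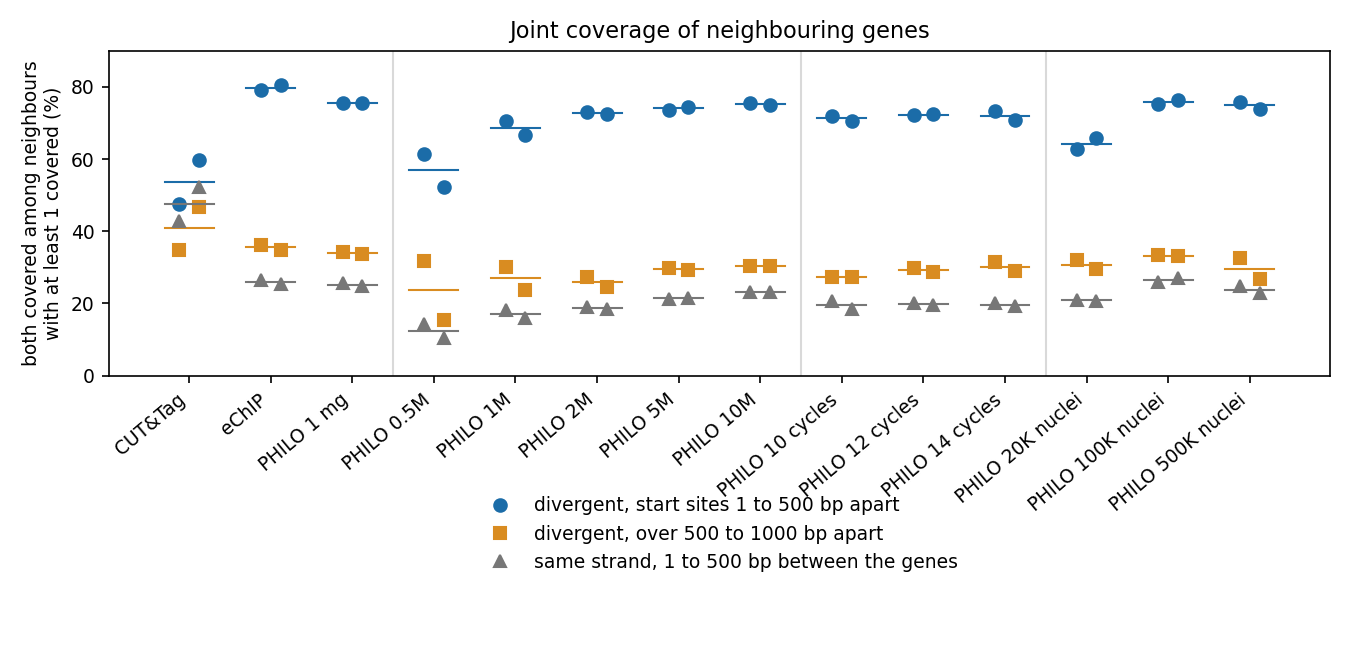
Share of neighbouring gene pairs with both genes covered, among those with at least 1 covered, for 3 kinds of neighbours in every library (points) and as group means (lines). Close divergent pairs lie highest in all libraries, by 47.5 points over same-strand neighbours on average, and the 3 kinds come closest together in CUT&Tag.

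Genes of divergent pairs were also covered more often than other genes. In CUT&Tag, 57.9% ± 8.87 of the 3060 pair genes and 41.7% ± 6.55 of the other 24384 genes were covered, and in PHILO 10M 62.3% ± 0.35 and 23.8% ± 0.14 (SD, n = 2). The mean difference over 14 groups was 34.8 percentage points and had the same sign in 28 of 28 libraries (exact sign-flip test, p = 0.000122, adjusted p = 0.000163). The rule of a wholly covered window favours pair genes, because a joined domain holds both start sites of a close pair. The test therefore measures consistency over libraries under this rule, and the size of the difference depends on it. Requiring only the bases after the first 200 gave 58.7% ± 8.71 of pair genes and 43.8% ± 6.83 of other genes in CUT&Tag, and 69.8% ± 0.09 and 50.7% ± 0.10 in PHILO 10M (SD, n = 2).

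The position of the domains around start sites differed between the methods. In CUT&Tag, coverage of pair genes was highest at 100 bp upstream of the start site, with 79.1% ± 3.54 (SD, n = 2), and fell to 58.8% at 500 bp inside the gene. At 13282 genes with 1000 bp of free upstream sequence the highest value, 45.0%, was at 100 bp inside the gene, and the start site itself had 43.7%.

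PHILO 10M domains lay further inside the genes. Around the start sites of pair genes, PHILO 10M coverage was 75.2% at 250 bp inside the gene, 64.6% at 100 bp upstream and 72.5% at 500 bp upstream, where the partner gene lies for most pairs. At genes with free upstream sequence it was 54.0% at 450 bp inside the gene, 18.4% at the start site and 4.85% at 500 bp upstream. At genes with a promoter of their own most PHILO 10M domains thus began inside the gene, a position that the rule of a wholly covered window counts as uncovered. The level at the start site divided by the highest level was 0.987 in CUT&Tag and 0.898 in PHILO 10M at pair genes, and 0.970 and 0.341 at genes with free upstream sequence.

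**Figure D4:**
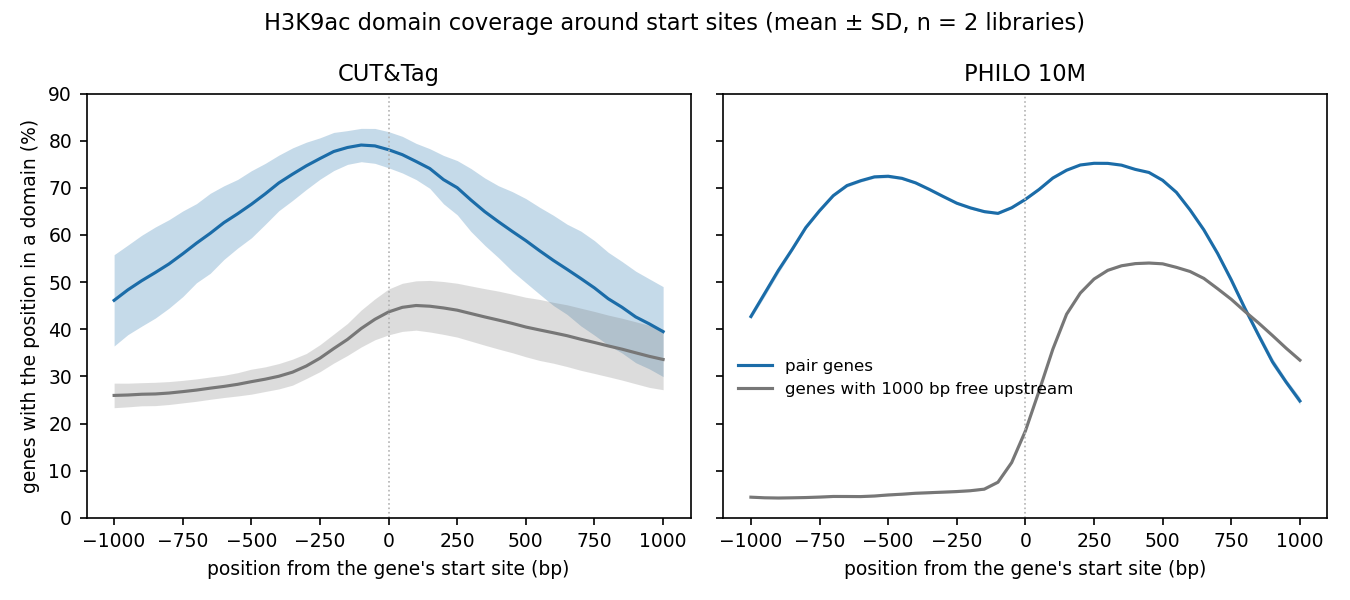
Share of genes with a position inside an H3K9ac domain, in percent, against the distance from the gene's start site in bp, as mean (line) and SD (band) of 2 libraries. In CUT&Tag the curve of pair genes is highest at the promoter, with 79.1% at 100 bp upstream, whereas in PHILO 10M it dips there to 64.6% between higher values on both sides.

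CUT&Tag, a cutting method, was set against PHILO 10M, a precipitation method. Both genes were covered in 33.2 and 48.0% of the pairs in the CUT&Tag libraries, against 53.8 and 53.1% in PHILO 10M, a mean difference of -12.9 percentage points (two-sided exact permutation test, p = 0.33, adjusted p = 0.44 over 4 differences), and 2 against 2 libraries cannot give a p below 0.33. The groups did not overlap, but the difference was -20.3 points without the second and -5.49 points without the first CUT&Tag library, and it turned to +7.84 points when 1 covered bp was enough for a gene. The 2 CUT&Tag libraries were at 33.9 and 74.2% of the mean depth of the PHILO 10M libraries, in the same order as their shares of pairs, and the part of depth in this difference was not tested.

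At promoters the order was the other way round. A domain spanned 70.3 and 75.7% of the promoters in the CUT&Tag libraries, against 63.6 and 63.2% in PHILO 10M. Of the pairs with neither gene covered, 22.5% ± 5.49 were spanned in CUT&Tag (SD, n = 2), and the highest value among the other 26 libraries was 8.45%. These were short domains on the promoter, with a median length of 800 bp in either CUT&Tag library. Set against all other 26 libraries, a comparison chosen after the values were seen, CUT&Tag was higher in the share of pairs with 1 gene covered (34.6 against 18.3%, two-sided exact permutation test, p = 0.00265, adjusted p = 0.00529) and in the share of spanned promoters (73.0 against 59.7%, p = 0.00529 by the same exact test, adjusted p = 0.00529). The test exchanges all 28 libraries, though they form 14 groups of 2 replicates and CUT&Tag is 1 group. Its p-values are therefore smaller than a test over groups could give.

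Pairs moved in both directions between these methods. Of the pairs with the same state in both libraries of each group, 386 were covered on both sides in either group, 106 had 1 gene covered in CUT&Tag and both in PHILO 10M, 18 had none in CUT&Tag and both in PHILO 10M, and 35 had both in CUT&Tag and none in PHILO 10M. Counted by gene, 216 pair genes (7.06%) were covered in neither CUT&Tag library and in both PHILO 10M libraries, where 3.53% of all 27444 genes were; this is 11.7% of the pair genes covered in PHILO 10M and 13.9% of all genes covered there. In the other direction 190 pair genes (6.21%) were covered in both CUT&Tag libraries and in neither PHILO 10M library, against 16.2% of all genes. These are 12.9% of the pair genes and 44.7% of all genes covered in CUT&Tag.

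Of the 18 pairs covered on both sides in PHILO 10M and on neither in CUT&Tag, the 6 with the highest log2 fold in PHILO 10M all had a CUT&Tag domain over the promoter. They were AT4G18460, a D-Tyr-tRNA deacylase, with the RNA helicase AT4G18465; RIN1, a RuvB-like ATPase, with AT5G22340; ABO1, a subunit of the Elongator complex, with the alpha-N-acetylglucosaminidase CYL1; AT3G46210 with the UFM1 ligase AT3G46220; AT2G04230, an F-box protein, with AT2G04235; and AT4G20330 with AT4G20340. The last pair encodes the beta and the alpha subunit of TFIIE, a general transcription factor of RNA polymerase II, and its 96 bp promoter, shown above, holds TGGGCC at positions 52 and 67, both on the minus strand. Its domain ran over 800 bp, chr4:10984201-10985000, in both CUT&Tag libraries and ended short of 500 bp in either gene. Its log2 fold was 1.42 and 1.52 in CUT&Tag, against 1.84 and 1.79 in PHILO 10M, where the domain was 1400 and 1600 bp long. At the other 5 lost pairs the CUT&Tag domains were 600 to 1000 bp long and those of PHILO 10M 1400 to 2000 bp. That the lengths at lost pairs did not overlap is fixed by their choice, since a domain over both windows is longer than one over neither.

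The 6 strongest of the 35 pairs covered on both sides in CUT&Tag and on neither in PHILO 10M lay mostly in long domains. They were AT5G57910 with ENODL10, the cytochrome P450 gene CYP81G1 with HOS15, AT1G73760 with AT1G73770, SYP121 with AT3G11825, the cystatin gene AT4G16500 with AT4G16510, and AT3G54100 with PUMP1. HOS15 is a WD40 protein that acts in histone deacetylation and cold tolerance, SYP121 is a plasma membrane syntaxin of defence against fungi, and PUMP1 is a mitochondrial uncoupling protein. Over the CYP81G1 and HOS15 promoter the CUT&Tag domain was 22200 bp long in both libraries, with log2 folds of 1.89 and 1.79. No domain lay there in PHILO 10M, while both eChIP libraries had a domain of 10600 bp and the PHILO 1 mg libraries domains of 10200 and 800 bp. At AT3G54100 and PUMP1 the CUT&Tag domains were 2600 and 3000 bp long, and at the other 4 gained pairs 7600 to 20600 bp. The 6 pairs had a domain in 6, 8, 4, 5, 5 and 5 lists in the order named, including both CUT&Tag libraries. Outside CUT&Tag, these domains were missing from the other replicate, except in eChIP and 1 mg at CYP81G1 and HOS15. Both genes of the AT4G16500 pair were covered in replicate 1 of 0.5M, 1 mg and 100K (log2 folds 2.13, 2.31 and 2.16). Replicate 2 of each had no domain there. Domains at these pairs were therefore not confined to CUT&Tag.

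eChIP and PHILO 1 mg were compared with PHILO 10M next. The share with both genes covered differed by 1.54 percentage points in eChIP (54.5 and 55.5% against 53.8 and 53.1%, exact permutation test, p = 0.33, adjusted p = 0.44) and by -0.26 points in PHILO 1 mg (54.0 and 52.4% against 53.8 and 53.1%, exact permutation p = 1, adjusted p = 1). Neither sign was stable over the alternatives, as given at the end. In eChIP 736 pairs were covered on both sides in all 4 libraries of the comparison, 5 were covered on both sides in eChIP and on neither in PHILO 10M, and 7 the other way round. By gene, 43 pair genes (1.41%) were covered in eChIP alone and 41 (1.34%) in PHILO 10M alone, against 1.79 and 1.84% of all genes. For PHILO 1 mg these counts were 27 (0.882%) and 35 (1.14%), against 2.00 and 1.09% of all genes.

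The share of pairs covered on both sides rose with depth. It was 30.2 and 24.0% at 0.5M, 45.3 and 41.6% at 1M, 47.6 and 47.7% at 2M, 51.2 and 50.5% at 5M and 53.8 and 53.1% at 10M (Spearman rho = 0.98, two-sided permutation test with 100000 resamples, p = 2e-05, adjusted p = 6e-05 over 3 series; Pearson r = 0.89 with log10 depth, permutation p = 2e-05). Pearson's r stayed at 0.88 when the 10M libraries were left out. The increase was largest at the low end, and no 2 neighbouring depths overlapped. Of the pairs stable within groups, 76 had neither gene covered at 0.5M and both at 10M, 88 had 1 gene at 0.5M and both at 10M, and 1 had 1 gene at 0.5M and neither at 10M. By gene, 424 pair genes (13.9%) were covered in neither 0.5M library and in both at 10M and 2 (0.0654%) the other way round, against 10.2 and 0.131% of all genes. These 424 are 23.0% of the pair genes covered at 10M, against 2790 of the 6979 genes covered there in all, which is 40%.

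Fewer nuclei gave fewer pairs with both genes covered at the lowest input. The 20K libraries had 39.0 and 41.5%, the 100K libraries 52.9 and 55.2% and the 500K libraries 51.8 and 51.4%. The 20K libraries lay below all others of the series, by 11.4 percentage points on average against 500K (exact permutation test, p = 0.33, the smallest this design allows, adjusted p = 0.44), a difference that ranged from -20.7 to -3.14 points over the rules for domains and windows. A trend over the 3 numbers did not pass the test (Spearman rho = 0.48, exact p = 0.40, adjusted p = 0.40; Pearson r = 0.76 with log10 nuclei, exact p = 0.13, and 0.98 without the 500K libraries). The share of spanned promoters was 58.4% ± 0.18 at 20K and 60.9% ± 0.79 at 500K (SD, n = 2), and 76.3% ± 4.02 and 51.6% ± 2.56 of the pairs with 1 gene covered were spanned. The 20K libraries were at 45.8 and 49.3% of the 10M depth and the 5M libraries, with 51.2 and 50.5% of pairs covered on both sides, at 45.8 and 53.9%.

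Between 20K and 500K nuclei, 124 pair genes (4.05%) were covered in neither 20K library and in both 500K libraries and 15 (0.490%) the other way round, against 3.01 and 0.889% of all genes. These were 7.16% of the pair genes and 13.0% of all genes covered at 500K. Among the 17 pairs covered on both sides at 500K and on neither at 20K were PHOT2, a blue light receptor of phototropism and chloroplast movement, with ROS3, an RNA-binding protein of DNA demethylation, whose start sites are 7 bp apart. A domain was present there in 20 lists, with log2 folds of 1.23 to 2.30, and in none of the 0.5M, 1M, 20K and 100K libraries. The others named by the same rule were AT4G03600, annotated as a pyrroline-5-carboxylate reductase, with AT4G03610, AT1G78880 with AT1G78890, and AT3G57930 with AT3G57940.

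The number of PCR cycles showed no trend past the test. Both genes were covered in 47.9 and 46.9% of the pairs at 10 cycles, 48.4 and 48.0% at 12 cycles and 49.0 and 47.5% at 14 cycles (Spearman rho = 0.48, exact p = 0.40, adjusted p = 0.40; Pearson r = 0.53, exact p = 0.29, and 0.03 without the 10-cycle libraries). The ranges overlapped. Depth relative to PHILO 10M was 26.2, 35.0 and 44.3% on average at 10, 12 and 14 cycles, so cycles and depth cannot be told apart here.

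Few pairs held 1 state throughout. In all 28 lists 141 pairs (9.22%) were covered on both sides, 164 (10.7%) on neither and 11 (0.72%) at the same single gene. Without the CUT&Tag, 0.5M and 20K libraries, a choice made after the values were seen, 441 pairs (28.8%) were covered on both sides in the 22 remaining lists, 279 (18.2%) on neither and 47 (3.07%) at the same single gene, in 19 cases the minus-strand and in 28 the plus-strand gene. The median distance between start sites was 135 bp in the first class, 324 bp in the single-gene class and 302 bp in the uncovered class. Replicates gave the same state for 66.1% of the pairs at 0.5M, 66.9% in CUT&Tag, 71.4% at 20K and 92.5% at 10M, and at 204 pairs the single covered gene was the minus-strand gene in some lists and the plus-strand gene in others.

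The 6 pairs with the strongest 10M domains among those covered on both sides in every list served varied functions. AT1G73020 is an anoctamin-like membrane protein and VPS46.2 a SNF7-family subunit of the ESCRT machinery that sorts membrane proteins. AT1G59960 is an oxidoreductase and AT1G59970 a matrixin, a metalloprotease of the extracellular matrix. AT2G31800 is a protein kinase, and AT2G31810 is a small subunit of acetolactate synthase, the enzyme at the entry to branched-chain amino acid synthesis. The others were 2A6, an oxygenase, with AHP5, a phosphotransfer protein of cytokinin signalling; AT3G53860, an INO80 complex subunit D-like protein, with the ribosomal protein S3 gene AT3G53870; and the ribosomal protein L18e/L15 gene AT1G70600 with the transporter ABCB26. Between 2A6 and AHP5 another annotated gene, AT1G03420, overlaps the promoter.

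These pairs lay in 1 domain in all lists. They, the one-sided and the lost pairs were chosen or ordered by the PHILO 10M fold, so their lower folds in CUT&Tag are given as values only. Over the promoter of AT1G73020 and VPS46.2 the log2 fold was 1.96 and 2.17 in CUT&Tag, against 3.15 and 3.06 in PHILO 10M, and the domain was 3800 and 3200 bp long, against 2200 bp in both. It was 2.52 in both eChIP libraries, 2.10 and 1.79 at 20K nuclei and 3.10 and 3.17 at 500K nuclei. Over that of AT3G53860 and AT3G53870, with start sites 74 bp apart, it was 1.50 and 1.69 in CUT&Tag in domains of 8000 bp, against 3.21 and 2.78 in PHILO 10M in domains of 1600 and 1800 bp. Over all spanning domains, not chosen by fold, the median was 1.46 in CUT&Tag and 2.07 in PHILO 10M.

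**Figure D5:**
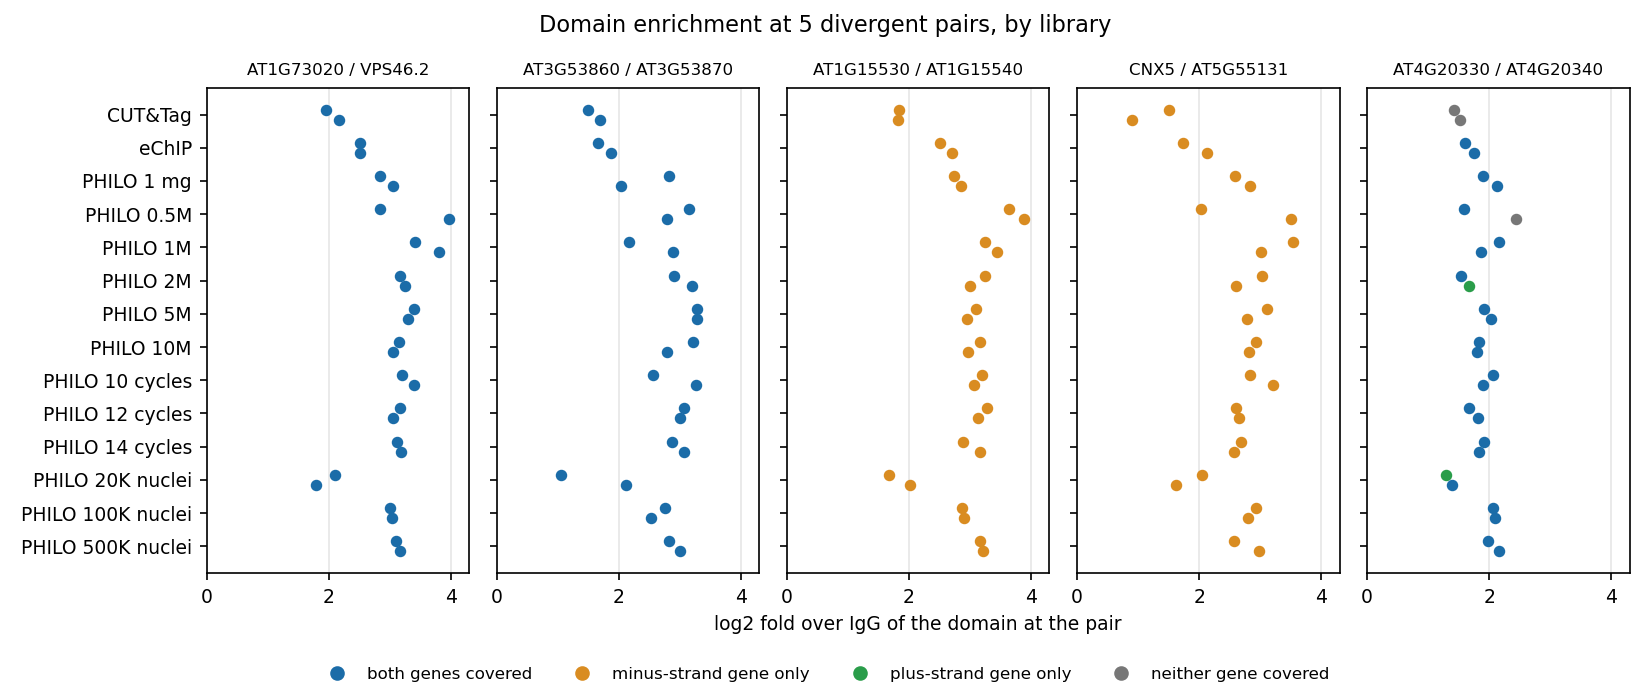
Deposited log2 fold over IgG of the domain at 5 divergent pairs (horizontal axis) in every library (points, 2 per group), coloured by which gene's first 500 bp the domain covers. At AT1G73020 and VPS46.2 the CUT&Tag and 20K points, between 1.79 and 2.17, lie below all others, and among the 5 pairs only the TFIIE pair AT4G20330 and AT4G20340 changes colour.

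The 8 one-sided pairs named here were chosen because the same single gene was covered in all 28 lists, which held for 11 pairs in all. AT1G15530, a lectin receptor kinase, was covered and AT1G15540, a dioxygenase-like protein 159 bp away, was not: the domain ended at position 5342000 of chromosome 1, just past the kinase's start site at 5341931, in 24 lists and reached the partner's start site in 4, among them both CUT&Tag libraries. Its log2 fold was 1.83 and 1.81 in CUT&Tag, against 3.16 and 2.96 in PHILO 10M. CNX5, an enzyme of molybdenum cofactor synthesis, was covered and AT5G55131, a short protein of unknown function 445 bp away, was not. That domain was 1200 and 2000 bp long in CUT&Tag, against 800 bp in both PHILO 10M libraries, with log2 folds of 1.51 and 0.90, against 2.93 and 2.82, and spanned the promoter in 0 lists.

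The other 6 one-sided pairs held both kinds of strand order. PSRP5, a plastid ribosomal protein, was covered next to AT3G56920, a DHHC-type zinc finger protein, and the domain ended at position 21070400 of chromosome 3, just past its start site at 21070356, in all lists but the 2 of CUT&Tag, where it reached the partner's start site. AtNug2, a GTPase of ribosome assembly, was covered next to DD11, a gene of the female gametophyte. AT1G71170 was covered next to KCS7, an enzyme of very-long-chain fatty acid synthesis, AT3G01340, a WD40 protein, next to AT3G01345, AT2G03310 next to AT2G03320, and AT4G31530 next to AT4G31520, an SDA1-family protein. The last promoter was spanned in 10 lists, the largest number among the 8. Of the 47 single-gene pairs the covered genes had a median length of 1971 bp, with 0 under 500 bp, and the uncovered ones 1436 bp, with 6 under 500 bp.

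Short distances were no guarantee of coverage. In the 4 closest pairs without coverage in any list, AT1G29775 and AT1G29780, AT1G09400 and AT1G09410, BGAL11 and RAC3, and AT3G15250 and AT3G15251, the start sites were 3, 4, 4 and 10 bp apart, and no domain spanned them in any of the 28 lists. BGAL11 is a beta-galactosidase. Their gaps are too short to hold a promoter sequence of their own, so none is printed. Another annotated gene, AT1G29785, overlaps the gap between AT1G29775 and AT1G29780. All these distances rest on the annotated start sites, which were not checked here.

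Where domains covered 1 gene, many ran past the promoter. In CUT&Tag 76.8% ± 3.45 of such domains ran past the other start site, by a median of 263 bp, and in PHILO 10M 54.9% ± 0.07, by a median of 396 bp (SD, n = 2). In PHILO 10M the pairs whose domain ran past had a median distance of 166 bp, against 317 bp for pairs whose domain stopped in the promoter. A pair with 1 gene covered was thus often a pair with less than 500 bp of domain in the second gene.

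Gene groups were formed by words of the annotation and counted in the pairs and outside them, without a test. Of 344 genes with ribosomal protein in their product name 80 (23.3%) were in a divergent pair, against 11.2% of all genes, and 50 of these 80 (62.5%) were covered in all 22 lists and 5 (6.25%) in none, where 40.2 and 26.5% of all pair genes were. Genes of pentatricopeptide proteins, which process organelle RNA, were in pairs in 71 of 313 cases, with 46.5% covered in all 22 lists and 14.1% in none. Of 16 chlorophyll or photosystem genes in pairs 10 (62.5%) were covered in all, of 21 histone genes 11 (52.4%) and of 17 tRNA ligases 8 (47.1%). F-box genes, which select proteins for degradation, stood at the other end: 71 were in pairs, 11 (15.5%) were covered in all and 50 (70.4%) in none, and among the single-gene pairs 6 F-box genes were on the uncovered side and 0 on the covered side. Genes without a known function were in pairs in 306 cases, 22.5% covered in all and 49.7% in none. Kinase genes were rarely in pairs, in 99 of 1388 cases (7.13%), and 44.4% of those were covered in all 22 lists. Outside the pairs, 24.6% of the ribosomal protein genes, 34.9% of the chlorophyll or photosystem genes and 3.95% of the F-box genes were covered in all 22 lists. All genes there had 8.05%, so these groups lay on the same side of all genes inside and outside the pairs. For other groups the side differed, but on few genes or on shares near those of all genes, so it is not read as a result. Kinase genes (90 genes, 6.98%) and tRNA ligases (4 genes, 7.27%) lay just below all genes outside the pairs. Inside the pairs, 44 of 99 kinase genes and 8 of 17 tRNA ligases were covered in all 22 lists, above the 40.2% of all pair genes. Disease resistance genes had 7 of 22 (31.8%) in pairs and 25 (14.5%) outside.

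The 250 bases before the start sites of pair genes differed in GC and words from those of all genes. In the 250 bases before the start site, TGGGCC on either strand, the word of the site II elements known from ribosomal protein and cell growth genes, occurred at 31.5% of pair genes, 13.7% of all 27444 genes. AAACCCTA, known as the telo-box, occurred at 10.3% of pair genes and 4.49% of all, CACGTG, the G-box, at 10.2 and 6.49%, and TATAAA, the core of the TATA box, at 39.8 and 47.3%. The median GC content was 36.0% at pair genes and 31.2% at all. Both orientations were counted, no word contains another, and a window of 250 bases runs into the partner gene where the start sites are closer than that. Within the pairs, TGGGCC was at 31.5% of the genes of pairs covered on both sides in the 22 lists and at 21.3% of those covered on neither, and AAACCCTA at 9.41 and 7.89%. These windows count a shared promoter once for each gene. In the sequence between the start sites itself, taken where it had at least 60 bases, TGGGCC was at 33.4% of 341 promoters covered on both sides and at 25.2% of 254 covered on neither, but AAACCCTA was at 2.93 and 11.02%, the other order. At the 47 promoters of the single-gene class TGGGCC was at 40.4% and AAACCCTA at 10.6%. The median GC content between the start sites was 34.2% in the class covered on both sides, 34.7% in the single-gene class and 32.5% in the uncovered class. Promoters covered on neither side are longer, as given above, and so have more room for a match. A match is only a string of letters and says nothing of binding.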

How the data were processed

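H3K9ac domain lists of 28 libraries were used. The authors aligned reads to TAIR10 with Bowtie2 and called domains in each library against IgG with epic2 (0.0.52; SICER in the submitters' processing notes). Window, gap, FDR limit and duplicate handling are not given in the sources used here. For each domain the authors deposited unnormalised ChIP and IgG read counts, a log2 fold of these counts after scaling by library size, and a p-value with its FDR. Genes came from the RefSeq copy of TAIR10.1, whose chromosome lengths fit the lists, with TAIR and Araport gene models.

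Pairs were scored in Python 3.11.15 (pandas 2.3.3, numpy 2.4.6, scipy 1.17.1). Genes shorter than 500 bp had to be covered whole. Depth relative to PHILO 10M was derived from the counts and the log2 fold of each domain, which together give the ratio to the IgG library, whose counts were identical in all lists at domains with the same borders. Groups followed the sample titles. Differences between groups were tested by exact permutation, series by permutation of Spearman and Pearson correlations, and contrasts within libraries by sign flips over 14 group means, with Benjamini-Hochberg adjustment. The scoring was tested on simulated pairs. Errors are SDs between libraries. At domains with identical borders the counts of replicates differed by 0.757 to 1.56 times the variance that sampling gives, and by less than 1 in 11 of 14 groups; such domains are a choice of the most alike, most domains differed in borders or counts, and replicates were kept as separate libraries.

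Pairs were named by fixed rules: the 6 with the highest log2 fold in PHILO 10M among those covered on both sides in all libraries, the 8 with the same single gene covered in most libraries, the 4 closest without coverage, up to 6 changing in either direction between CUT&Tag and PHILO 10M, and up to 4 lost at 20K nuclei. Members, rules and lists were chosen with earlier results of these data known. Alternatives were another share or length of the gene window, a log2 fold of at least 1, an FDR of at most 1e-10, start sites up to 250 bp apart, promoters without another gene, leaving out a library, a replicate block and 5M libraries as reference. Requiring only the bases after the first 200 and leaving out groups were added after the values were seen.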

Additional observations from a re-analysis of the deposited data

Results flagged for a closer look

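The log2 fold of spanning minus other domains was +0.18 in CUT&Tag, with both libraries above 0, and below 0 in all other 26 libraries, between -0.46 and -0.04. CUT&Tag lay 0.31 above the mean of the others on the log2 scale (two-sided exact permutation test of 2 against 26 libraries, chosen after the values were seen, p = 0.00529, adjusted p = 0.00529 over 4 comparisons, smallest possible p = 0.00265). Here too the 2 replicates of a group count as separate libraries, and a test over the 14 groups could not give so small a p. CUT&Tag domains also differed in length, with a median of 2500 bp for spanning and 1700 bp for other domains, against 1800 and 1000 bp in PHILO 10M, and the part of length in the fold was not tested.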

How the results depend on the processing

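Of 170 values under alternatives, 145 kept direction and side of the threshold, or moved by less than 1 SD. The depth trend and the 4 contrasts within libraries did so under every alternative run. The 4 differences between groups of 2 libraries cannot pass the threshold under any alternative, so for them only the direction could change. The eChIP difference from PHILO 10M turned to -0.82 points with 250 covered bp, -0.92 with 1 covered bp, -0.42 with a window of 300 bp and -0.16 with a log2 fold of at least 1. The CUT&Tag difference turned to 7.84 points with 1 covered bp. The cycle trend turned to a rho of -0.12 with 1 covered bp and -0.24 with 300 bp. The PHILO 1 mg difference turned to 0.31 points with start sites up to 250 bp apart, 2.32 against 5M, and lay between -1.05 and 0.52 with 1 library left out, where it was 0.52 without the second 1 mg and 0.07 without the first 10M library. The CUT&Tag difference lay between -20.3 and -5.49 points with 1 library left out, the low end without the second and the high end without the first CUT&Tag library. The PHILO 10M share with both genes covered was 62.8% with 250 covered bp, 65.3% with 1 covered bp, 61.2% with 300 bp and 64.4% with start sites up to 250 bp apart.

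Replicate numbers did not pair the samples: the difference between replicates correlated between groups by -0.10 to 0.13, over 0.1 in 3 of 91 group pairs. With a replicate block the depth trend had a mean rho of 1 within numbers (exact permutation p = 0.000139), the cycle trend 0.75 (exact p = 0.28) and the nuclei trend 0.50 (exact p = 0.50), and the differences between groups kept their values with a smallest possible p of 0.50.

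The share of pairs with neither gene covered was highest at 0.5M, with 52.5%, against 28.9% at 10M. Of the pairs uncovered in both 0.5M libraries and in 1 state in both 10M libraries, 76 had both genes covered at 10M, 112 had 1 gene and 383 had neither. An uncovered state at 0.5M was thus not always kept at 10M. Uncovered does not mean without a domain: 20 and 70 of the pairs with neither gene covered in the 0.5M libraries had a domain across both start sites.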
